A study of Mus musculus with 11 samples.

Results

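The genes described here are 10 markers of blood monocytes that enter injured liver, namely Ly6c2, Ccr2, Cx3cr1, Csf1r, Fcgr1, Chil3, Lyz2, F13a1, Plac8 and Ms4a6c. They were set as a list of gene symbols, chosen with earlier results of these data known. All 10 were found among the 31053 genes counted. The study profiled 11 mouse liver sections with Visium, a spatial RNA assay in which barcoded spots capture the transcripts of the tissue lying above them. A unique molecular identifier (UMI) counts one captured molecule. Uninjured liver gave 3 sections, called 0 h 2, 0 h 3 and 0 h 4. After an overdose of acetaminophen (paracetamol, APAP), 24 h and 36 h gave 2 sections each, lettered A and B, while 48 h gave 4, lettered A to D.

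The study's methods give young adult C57BL/6JCrl mice, male unless described otherwise, which were fasted before APAP was injected into the peritoneum. For the spatial data they give 1 mouse per time point, so the values below measure the spread between sections, which may be technical, and mouse and time cannot be told apart. The labels name no batch and give neither strain nor age. The 12 hepatocyte genes used below made up 118235 to 202691 CPM of each section, so the tissue bore the markers of its label. APAP kills hepatocytes around the central veins, and a spot is wider than a single cell, so it can hold hepatocytes and several leukocytes at once.

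Classical monocytes leave the bone marrow and enter damaged tissue through the chemokine receptor CCR2, whose ligands CCL2 and CCL7 are made at the site of injury. They carry the surface protein LY6C, and as they turn into macrophages in the tissue they lower LY6C and CCR2 and raise CX3CR1. The liver also holds resident macrophages, the Kupffer cells, which express Csf1r, Fcgr1 and Lyz2 before any injury. Lyz2, Plac8 and Chil3 are also transcribed in neutrophils, so the list is not exclusive to monocytes.

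After filtering, a section held 1490 to 3466 spots and 31292663 to 67045372 UMIs, with a median of 15168.5 to 29950 UMIs per spot. Levels over a whole section are given as CPM, a gene's UMIs on a common scale for all libraries, scaled by the trimmed mean of M values (TMM). Total-count scaling in place of TMM moved the median log2 fold change of all genes against 0 h from 0.05 to 0.37 at 24 h, from 0.05 to 0.49 at 36 h and from 0.01 to 0.54 at 48 h, so the changes below are relative to that median. In whole sections, fewer cells of a type and less RNA per cell cannot be told apart. A gene was called when its adjusted p, from edgeR's quasi-likelihood test with Benjamini-Hochberg adjustment over all 14821 genes tested, was under 0.05.

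More of the monocyte genes were called higher at each later time after APAP. At 24 h, 5 of the 10 were higher than at 0 h, namely Ccr2, Chil3, F13a1, Ms4a6c and Cx3cr1, beside 23.1% of all genes called higher. At 36 h these 5 and Fcgr1 were higher, 6 of 10, beside 16.8% of all genes called higher. At 48 h every member but Csf1r was higher, 9 of 10, beside 23.3% of all genes called higher. The median log2 fold change of the list was 0.88 at 24 h, 1.46 at 36 h and 1.72 at 48 h, against 0.05, 0.05 and 0.01 for all genes tested. The 3 comparisons share their 0 h sections. Without section 24 h B the 24 h count was 3, Ccr2, Chil3 and F13a1. Leaving out 36 h B gave a 36 h count of 4, leaving out 36 h A gave 8, and with total-count scaling the counts at 24, 36 and 48 h were 7, 9 and 10. Total-count scaling also raised the median of all genes. The shares of all genes above belong to the reported fit and not to these other settings.

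**Figure D1:**
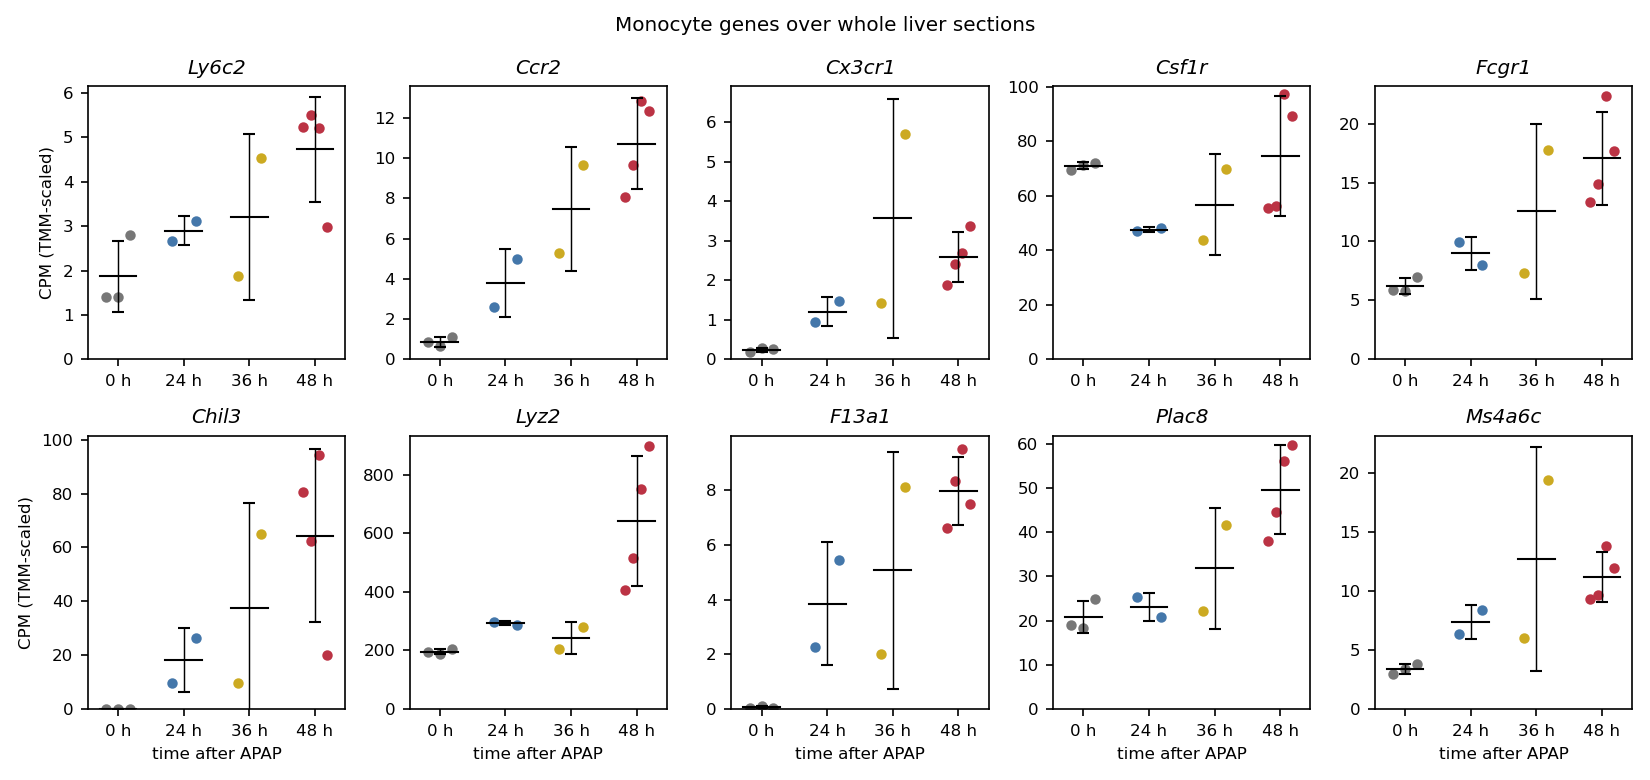
Level of each monocyte gene (TMM-scaled CPM, linear axis from 0) in every section by time after APAP. Points are sections, horizontal lines are group means and bars are ± SD (n = 3, 2, 2 and 4 sections; the lower bar is clipped at 0 for Chil3 at 36 h). All 48 h sections lay above all 0 h sections for every gene but Csf1r. Such separation was not counted over all genes, of which 23.3% were called higher at 48 h. Section 36 h B was above 36 h A for all 10 genes.

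Both chemokine receptors were called at every time. Ccr2 (ENSMUSG00000049103, chr9:124101950-124113557, GRCm38), which draws monocytes along a CCL2 gradient, measured 0.836, 0.644 and 1.13 CPM in the 0 h sections, 2.58 and 4.98 CPM at 24 h, 5.27 and 9.65 CPM at 36 h, and 8.06, 9.66, 12.8 and 12.3 CPM at 48 h. The 0 h sections did not overlap those of any later time, and group means climbed from 0.87 ± 0.245 CPM (SD, n = 3) to 10.7 ± 2.25 CPM (SD, n = 4). The log2 fold change against 0 h was 2.13 ± 0.38 (SE, edgeR adjusted p = 0.00142) at 24 h, 3.12 ± 0.37 (adjusted p = 0.000549) at 36 h and 3.65 ± 0.34 (adjusted p = 4.36e-05) at 48 h. Between 24 h and 48 h it rose by a further 1.52 ± 0.34 (edgeR adjusted p = 0.00747).

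Cx3cr1 (ENSMUSG00000052336, chr9:119901616-120069879), the fractalkine receptor that monocytes gain as they mature, was sparse. Its 0 h sections held 8, 15 and 9 UMIs, or 0.176, 0.276 and 0.254 CPM. It measured 0.946 and 1.47 CPM at 24 h, 1.42 and 5.71 CPM at 36 h, and 1.87, 2.42, 2.70 and 3.37 CPM at 48 h. Every injured section was above every 0 h section, and the highest single value was in 36 h B rather than at 48 h. Summed over sections, the ratio to 0 h was 4.88 (95% counting interval 3.23 to 7.56) at 24 h, 15.1 (10.4 to 22.6) at 36 h and, at 48 h, 11 (7.71 to 16.2), and the gene was called at each time (edgeR adjusted p = 0.00833, 0.00113 and 0.000417). Counting intervals here cover counting error only.

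Ly6c2 (ENSMUSG00000022584, chr15:75108158-75111970), the defining surface antigen of classical monocytes, was called at 48 h only. It measured 1.41, 1.4 and 2.80 CPM at 0 h, 2.67 and 3.13 CPM at 24 h, 1.88 and 4.54 CPM at 36 h, and 5.23, 5.52, 5.22 and 2.98 CPM at 48 h. The 24 h and 36 h sections overlapped the 0 h range, and only 48 h lay clear of it, with section 48 h D just above section 0 h 4. The log2 fold change was 0.65 ± 0.42 at 24 h (SE, edgeR adjusted p = 0.242) and 1.36 ± 0.36 at 48 h (adjusted p = 0.011). Without section 0 h 3 the 48 h call was lost. Of the 50-base windows in the last 500 bases of its longest protein-coding transcript, 20.6% were also found in Ly6c1, Ly6a or I830127L07Rik. Reads from those windows may not be told apart between these genes, and how they were counted was not examined. Ly6c1 itself lay between 0.172 and 1.02 CPM in every section.

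Chil3 (ENSMUSG00000040809, chr3:106147554-106167564), a secreted chitinase-like protein, had the largest ratio to its 0 h level in the list at each time. The 0 h sections held 0, 6 and 5 UMIs, or 0, 0.11 and 0.141 CPM. Chil3 then measured 9.85 and 26.5 CPM at 24 h, 9.71 and 65.1 CPM at 36 h, and 80.5, 62.3, 94.3 and 20.3 CPM at 48 h. All 8 injured sections were far above 0 h, and the injured times overlapped each other, since section 48 h D lay below 24 h B. The ratio of summed UMIs to 0 h was 204 (95% counting interval 113 to 409) at 24 h, 462 (258 to 927) at 36 h and 793 (443 to 1589) at 48 h, called at all 3 times (edgeR adjusted p = 0.00108, 0.00145 and 0.00026). Chil4 and Gm6522 share 17.1% of the Chil3 windows. The summed level of 12 neutrophil genes was 3.70 to 10.5 CPM at 0 h, 44.8 and 151 CPM in 24 h A and B, 26.9 and 74.2 CPM in 36 h A and B, and 70.8, 67.7, 121 and 40.4 CPM in 48 h A to D, so the sections low in Chil3 within each time were also low in neutrophil genes. The part of neutrophils in the Chil3 level was not tested.

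F13a1 (ENSMUSG00000039109, chr13:36867178-37050244), the A subunit of coagulation factor XIII, was also near 0 before injury. It had 2, 7 and 2 UMIs in the 0 h sections. It measured 2.26 and 5.46 CPM at 24 h, 2 and 8.13 CPM at 36 h, and 6.60, 8.33, 9.51 and 7.48 CPM at 48 h. The 48 h sections were close together, and the ratio to 0 h reached 97.8 (95% counting interval 54.6 to 196) there, after 43.6 (24.0 to 88.3) at 24 h and 62.5 (34.5 to 126) at 36 h. All 3 changes were called (edgeR adjusted p = 0.000339, 0.000694 and 7.84e-05).

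Ms4a6c (ENSMUSG00000079419, chr19:11469366-11482192), a membrane protein of the MS4A family, was called at all 3 times. It measured 2.99, 3.42 and 3.78 CPM at 0 h, 6.34 and 8.42 CPM at 24 h, 6 and 19.4 CPM at 36 h, and 9.31, 9.64, 13.8 and 12.0 CPM at 48 h. No injured section overlapped 0 h, and 36 h B was above every 48 h section. The log2 fold change was 1.12 ± 0.39 at 24 h (SE, edgeR adjusted p = 0.0433), 1.90 ± 0.39 at 36 h (adjusted p = 0.00638) and 1.72 ± 0.34 at 48 h (adjusted p = 0.00274). The 24 h call was lost on leaving out any section other than 36 h A, 36 h B and 48 h C. Of the Ms4a6c windows 13.7% were shared, with Ms4a6b among others.

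Plac8 (ENSMUSG00000029322, chr5:100553725-100572245), a small cysteine-rich protein of myeloid cells, measured 18.9, 18.4 and 24.9 CPM at 0 h, 25.3 and 20.8 CPM at 24 h, 22.1 and 41.5 CPM at 36 h, and 37.9, 44.6, 56.1 and 59.6 CPM at 48 h. The 24 h and 36 h sections overlapped 0 h, whereas the 48 h sections all lay above it. Plac8 rose at 48 h by a log2 of 1.26 ± 0.23 (SE, edgeR adjusted p = 0.00163) against 0 h and 1.10 ± 0.27 (adjusted p = 0.0106) against 24 h.

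Lyz2 (ENSMUSG00000069516, chr10:117277331-117282321), the lysozyme of macrophages and granulocytes, measured 196, 187 and 206 CPM at 0 h, 298 and 288 CPM at 24 h, 204 and 281 CPM at 36 h, and 407, 516, 751 and 897 CPM at 48 h. The 4 sections at 48 h stood above all 7 others, and both 24 h sections lay above every 0 h section, though the log2 difference of 0.58 ± 0.28 at 24 h was not called (SE, edgeR adjusted p = 0.12). Lyz2 rose at 48 h by a log2 of 1.71 ± 0.25 (SE, edgeR adjusted p = 0.000407) against 0 h, 1.13 ± 0.28 (adjusted p = 0.0113) against 24 h and 1.41 ± 0.28 (adjusted p = 0.0302) against 36 h. Lyz1, which shares 16.9% of the Lyz2 windows, measured at most 0.607 CPM.

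Fcgr1 and Csf1r are receptors of tissue macrophages as well as monocytes. Fcgr1 (ENSMUSG00000015947, chr3:96282909-96293969), the high-affinity Fc receptor CD64, measured 5.88, 5.78 and 7 CPM at 0 h, 9.98 and 8.01 CPM at 24 h, 7.30 and 17.8 CPM at 36 h, and 13.4, 14.9, 22.3 and 17.6 CPM at 48 h. No injured section fell within the 0 h range, though 36 h A lay just above it. The log2 fold change was 1.02 ± 0.33 at 36 h (SE, edgeR adjusted p = 0.0399) and 1.46 ± 0.28 at 48 h (adjusted p = 0.0023). The 36 h call of Fcgr1 held only without 36 h A, 48 h A or 48 h C.

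Csf1r (ENSMUSG00000024621), the receptor that keeps monocytes and macrophages alive, measured 69.6, 71.4 and 72.1 CPM at 0 h, 46.9 and 48.3 CPM at 24 h, 43.7 and 69.9 CPM at 36 h, and 55.5, 56.2, 97.3 and 89.4 CPM at 48 h. Both 24 h sections lay below 0 h, and the 48 h sections fell on both sides of it. The log2 fold change was -0.58 ± 0.27 at 24 h (SE, edgeR adjusted p = 0.105), -0.32 ± 0.26 at 36 h (adjusted p = 0.378) and, by 48 h, 0.07 ± 0.22 (adjusted p = 0.813). With total-count scaling the sign turned at 36 h, to 0.11, and Csf1r was called higher at 48 h, at 0.60 (edgeR adjusted p = 0.0325). When only the 0 h and 24 h sections were fitted, it was called lower at 24 h, at -0.61 (adjusted p = 0.000935).

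**Figure D2:**
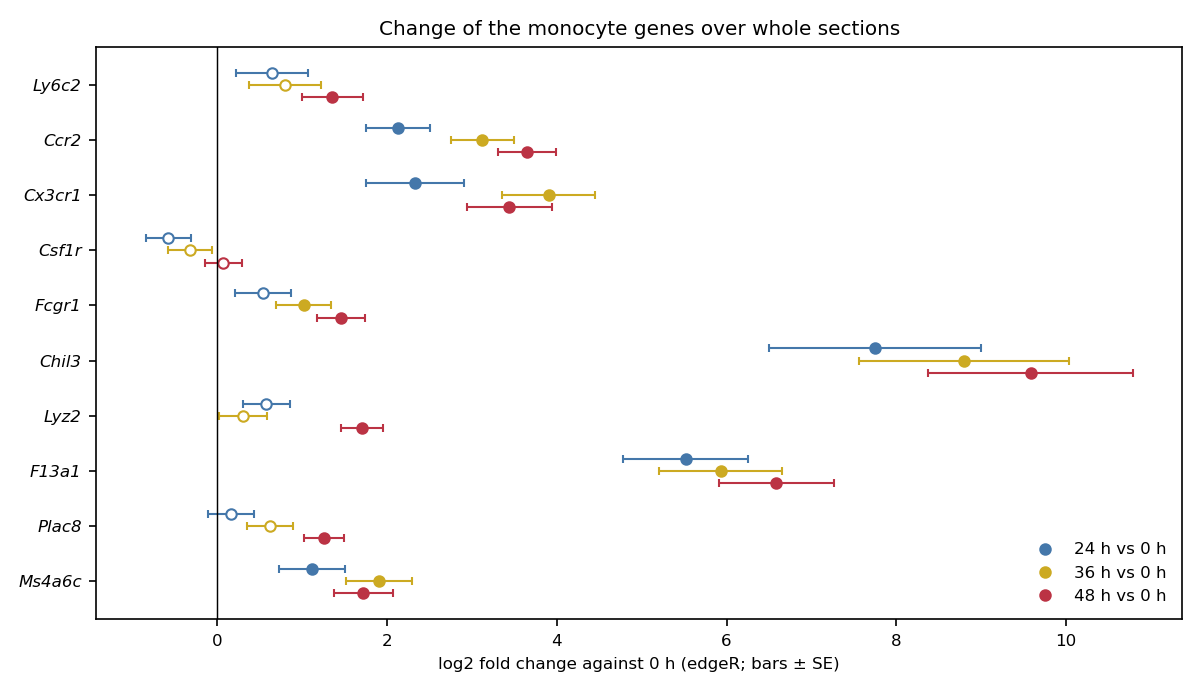
Log2 fold change of each monocyte gene against 0 h (edgeR; bars are ± SE) at 24, 36 and 48 h. Filled points have an adjusted p under 0.05 and open points do not. Chil3 and F13a1 lie farthest from 0, with fitted values that rest on 11 UMIs each at 0 h, and at 48 h Csf1r lies nearest to it.

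Between injured times fewer changes were called. From 24 h to 36 h, edgeR called 0 of the 10 genes, beside 7.04% of all genes called higher, with 2 at an unadjusted p under 0.05, and DESeq2 called Cx3cr1. From 24 h to 48 h, Ccr2, Lyz2, Plac8 and Fcgr1 rose, 4 of 10, beside 16.2% of all genes called higher. From 36 h to 48 h only Lyz2 rose, 1 of 10, beside 1.62% of all genes called higher. These counts turned on single sections. Section 36 h B exceeded 36 h A in all 10 genes, from 1.38-fold for Lyz2 to 6.70-fold for Chil3. Without 36 h A, 5 genes were called from 24 h to 36 h, 8 from 24 h to 48 h and 0 from 36 h to 48 h. Without 36 h B the last 2 counts were 8 and 4. Without 24 h A or without 24 h B only 1 was called from 24 h to 48 h, Plac8 in the first case and Ccr2 in the second. The call of Fcgr1 from 24 h to 48 h was also lost without any 1 of the 0 h sections, 48 h B, 48 h C or 48 h D. Lyz2 was lost from 36 h to 48 h without any 1 of the 0 h sections, without 48 h B and without 48 h C.

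Promoter sequence of 5 members is shown because the changes of these genes at 48 h ran from that of Ly6c2 to that of Chil3, which had next to no UMIs before injury. The windows run from 250 bases before to 50 bases after an annotated start (RefSeq, GRCm38.p6), 5′ to 3′ on the strand of the gene. Capitals mark GAGGAAG on either strand, the core bound by the myeloid factor PU.1. The windows are chr15:75111888-75112187 (minus strand) for Ly6c2, chr13:37050195-37050494 (minus strand) for F13a1, chr3:96293920-96294219 (minus strand) for Fcgr1, chr9:124101933-124102232 (plus strand) for Ccr2 and chr3:106167515-106167814 (minus strand) for Chil3.
Ly6c2: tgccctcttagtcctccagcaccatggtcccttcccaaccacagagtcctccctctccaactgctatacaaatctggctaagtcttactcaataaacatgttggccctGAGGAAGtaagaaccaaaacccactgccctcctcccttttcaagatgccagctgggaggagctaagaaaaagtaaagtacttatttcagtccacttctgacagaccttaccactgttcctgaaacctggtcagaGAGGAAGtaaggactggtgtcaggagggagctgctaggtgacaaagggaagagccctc
F13a1: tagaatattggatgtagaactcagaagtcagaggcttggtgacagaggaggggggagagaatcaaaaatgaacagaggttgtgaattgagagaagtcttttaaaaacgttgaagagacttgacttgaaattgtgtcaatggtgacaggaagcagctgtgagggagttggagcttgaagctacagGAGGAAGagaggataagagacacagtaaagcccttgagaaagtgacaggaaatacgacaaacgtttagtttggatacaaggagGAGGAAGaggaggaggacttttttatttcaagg
Fcgr1: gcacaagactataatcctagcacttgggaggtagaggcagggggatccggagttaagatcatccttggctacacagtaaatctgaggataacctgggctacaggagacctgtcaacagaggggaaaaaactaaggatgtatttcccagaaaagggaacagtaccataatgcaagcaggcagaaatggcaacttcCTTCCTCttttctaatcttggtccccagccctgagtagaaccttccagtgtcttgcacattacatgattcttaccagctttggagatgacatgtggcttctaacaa
Ccr2: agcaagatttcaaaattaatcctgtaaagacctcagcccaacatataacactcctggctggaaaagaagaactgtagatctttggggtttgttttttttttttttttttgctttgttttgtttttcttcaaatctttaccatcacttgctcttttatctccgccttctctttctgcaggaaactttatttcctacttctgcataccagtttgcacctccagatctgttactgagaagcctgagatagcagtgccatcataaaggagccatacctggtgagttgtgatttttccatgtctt
Chil3: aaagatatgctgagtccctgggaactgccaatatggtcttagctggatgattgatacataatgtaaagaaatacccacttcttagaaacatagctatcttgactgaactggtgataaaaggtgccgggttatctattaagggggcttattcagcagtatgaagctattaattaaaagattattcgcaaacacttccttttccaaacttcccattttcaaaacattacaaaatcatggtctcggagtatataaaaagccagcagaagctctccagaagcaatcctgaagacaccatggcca

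GAGGAAG occurred in 13.6% of the 32851 mouse promoter windows of this length. Windows of 9 members were searched. Among them it occurred at both annotated starts of Ly6c2 and of F13a1 and at that of Fcgr1, and not in those of Ccr2, Chil3, Cx3cr1, Lyz2, Ms4a6c or Plac8. A C/EBP core, TTGCNNAA, occurred in 10.8% of windows and at 1 of the starts of Plac8. Both strands were read, and no match of one motif overlapped the other. A match is a run of letters and was not tested for binding.

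Of the 5 ligands of CCR2 and CX3CR1 listed, 3 were called higher at 24 h, 2 at 36 h and 4 at 48 h, beside the shares of all genes given above. Ccl2, which recruits monocytes through CCR2, measured 2.66, 1.79 and 3.11 CPM at 0 h, 50.8 and 49.4 CPM at 24 h, 18.0 and 30.3 CPM at 36 h, and 56.8, 65.9, 38.0 and 22.3 CPM at 48 h. Its 24 h sections lay within the 48 h range, whereas the 24 h sections of Ccr2 lay below theirs, with a Ccl2 log2 fold change of 4.33 ± 0.44 (SE, edgeR adjusted p = 9.06e-05) at 24 h and 4.20 ± 0.41 (adjusted p = 6.51e-05) at 48 h. Ccl7, another CCR2 ligand, measured 0.484, 0.423 and 0.819 CPM before injury, 33.7 and 26.4 CPM in the 24 h sections, 18.9 and 10.8 CPM in the 36 h sections, and 17.8 to 39.5 CPM in the 48 h sections. Ccl12 was called higher at 24 h and 48 h, with at most 1.31 CPM in any section, and Ccl8 was not called at any time. Cx3cl1, the membrane ligand of CX3CR1, measured 0.462 to 0.819 CPM at 0 h and 1.17 to 2.35 CPM at 48 h, a log2 change of 1.19 ± 0.38 (SE, edgeR adjusted p = 0.0258).

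Of the CSF1R ligands, Csf1 rose from 9.31, 8.76 and 11.9 CPM at 0 h to 24.2 and 26.8 CPM at 24 h and 18.8 to 21.0 CPM at 48 h, with a log2 fold change of 1.35 ± 0.17 (SE, edgeR adjusted p = 0.000217) and 0.99 ± 0.15 (adjusted p = 0.000494). Il34, the other CSF1R ligand, was called at 36 h and 48 h, with log2 fold changes of 1.39 ± 0.37 and 1.26 ± 0.32 (edgeR adjusted p = 0.018 and 0.00899). Csf1r itself showed no called change over the section while both of its ligands were called higher. Csf2ra, a receptor chain for GM-CSF, was also higher at 48 h (1.58 ± 0.22, adjusted p = 0.000287), and Csf2 and Csf3 were too low to test.

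Other lists placed the members in context. Of 15 further genes of classical monocytes, 12 were higher at 24 h, 12 at 36 h and 13 at 48 h, beside 23.1%, 16.8% and 23.3% of all genes. Their median log2 fold change was 2.67 at 48 h, led by Clec4d (6.61 ± 0.60) and Vcan (6.23 ± 0.96), and with Ccl9 (0.03 ± 0.12) and Fcgr4 (0.13 ± 0.27) lowest. Of 10 genes of patrolling monocytes, 1 was higher and 1 lower at 48 h, Ace (2.31 ± 0.48) and Adgre4 (-0.57 ± 0.19), where 23.3% of all genes were called higher and 3101 of 14821 lower.

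Markers of other leukocytes were counted in the same fit. Of 11 Kupffer cell genes, 5 were lower and 1 higher at 24 h, and 3 were higher and 0 lower at 48 h, while 2754 of all 14821 genes were called lower at 24 h. Their summed level was 871 to 971 CPM at 0 h, 976 to 1059 CPM at 24 h, 745 and 1277 CPM at 36 h, and 973 to 1660 CPM at 48 h. Clec4f, a lectin of Kupffer cells, had a log2 fold change of -1.02 ± 0.24 (SE, edgeR adjusted p = 0.00616) at 24 h and -0.32 ± 0.19 (adjusted p = 0.2) at 48 h, while Marco, a scavenger receptor, rose by 4.04 ± 0.27 on the log2 scale at 24 h. Of 12 neutrophil genes 9 were tested and 8 were higher at 48 h. Of 8 dendritic cell genes 3 were higher, and of 11 lymphocyte and NK cell genes 2 were lower, with sums of at most 12.4 and 11.2 CPM. Over all genes, 23.3% were called higher at 48 h and 3101 of 14821 lower. Of 10 genes of lesion macrophages 9 were higher at 48 h, led by Gpnmb (11.4 ± 0.55), and 1 was lower, Fabp5 (-2.31 ± 0.50). How far each cell type contributed to Lyz2, Plac8, Fcgr1 or Csf1r was not tested.

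To locate the members, the spots of each section were ranked by the mean log level of 12 hepatocyte genes, none of them a member. UMIs were then summed over the lowest 10% (hepatocyte-poor spots) and the upper 50% (hepatocyte-rich spots). CPM of these classes were TMM-scaled in their own fit, so they are not on the scale of the section values. Spots picked for few hepatocyte transcripts tend to give other transcripts a larger share. The part of that choice in the differences below was not tested. After APAP every monocyte gene was higher in the hepatocyte-poor spots. The test called 10 of 10 at 24 h, at 36 h and at 48 h, beside 15.6%, 18% and 36.3% of all 13903 genes tested called higher. The median log2 difference of the members was 1.90, 2.25 and 2.46, against -0.04, 0.00 and 0.04 for all genes. Lists of other leukocytes were also higher there at 48 h, with 11 of 11 Kupffer cell genes, 10 of 10 lesion macrophage genes, 8 of 8 neutrophil genes tested, 9 of 10 patrolling monocyte genes, 8 of 9 lymphocyte and NK cell genes tested and 5 of 7 dendritic cell genes tested, and their part in the members' difference was not tested. At 0 h 5 of 10 were called higher, Ly6c2, Ccr2, Plac8, Ms4a6c and Csf1r, beside 7.6% of all genes. Hepatocyte-poor spots of the 0 h sections were shallow, with medians of 8858 to 12717 UMIs against 25852.5 to 38884 in hepatocyte-rich spots, and only Plac8 and Ms4a6c remained without 0 h 3 and only Ms4a6c without 0 h 4.

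**Figure D3:**
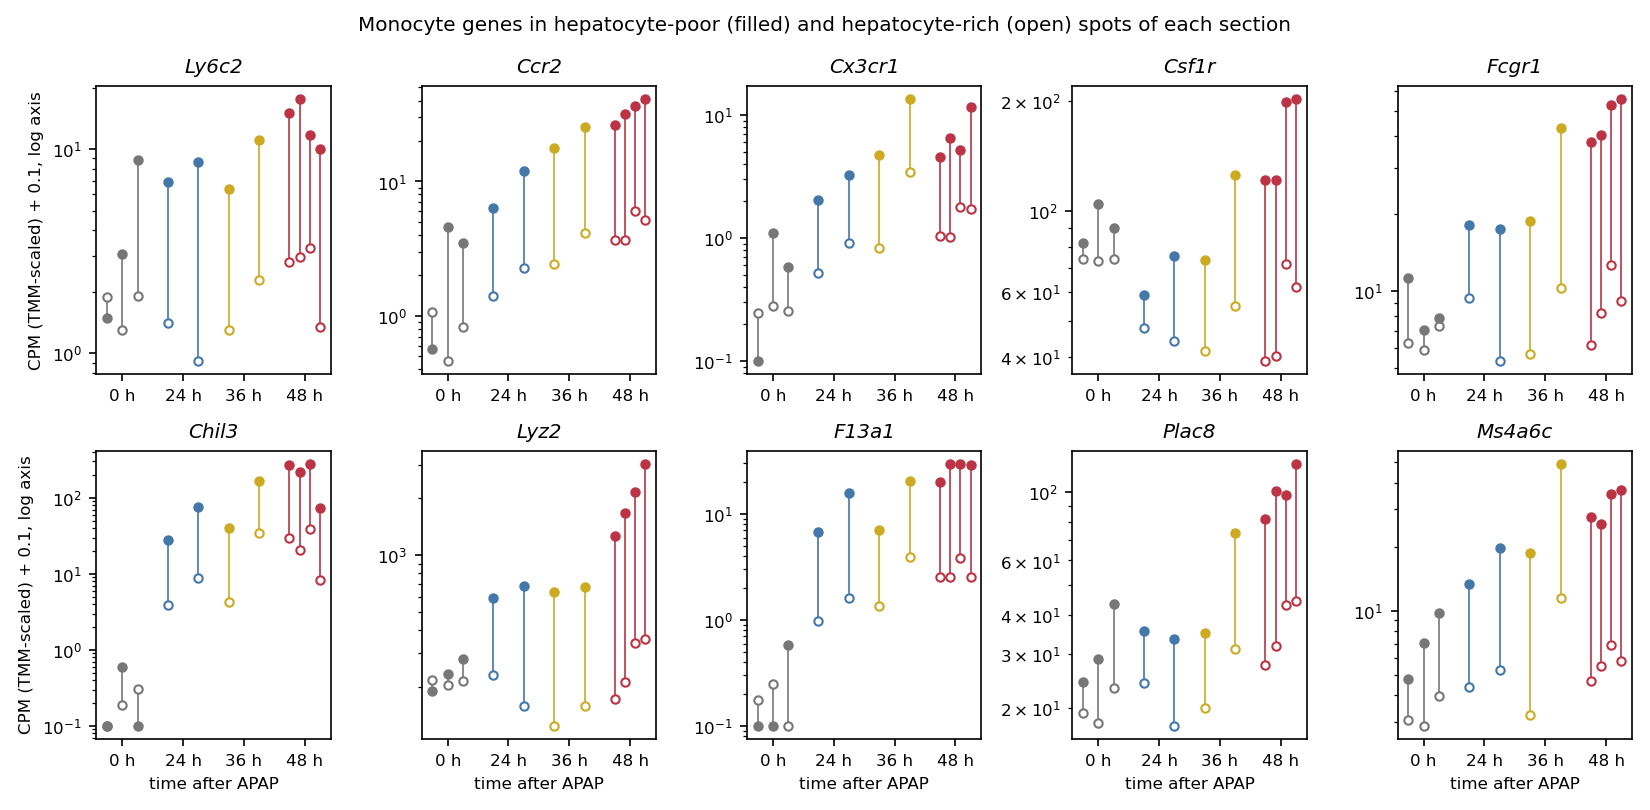
Level of each monocyte gene (TMM-scaled CPM + 0.1, log axis) in hepatocyte-poor spots (filled) and hepatocyte-rich spots (open) of the same section, joined by a line, by time after APAP. In all 8 injured sections the filled point is above the open point for all 10 genes, and at 0 h the order differs between sections for Ly6c2, Ccr2, Cx3cr1, Lyz2, Chil3 and F13a1.

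Lyz2 had the largest gain of a called member. Its hepatocyte-poor spots measured 189, 232 and 281 CPM at 0 h, 593 and 688 CPM at 24 h, 638 and 677 CPM at 36 h, and 1265, 1662, 2157 and 3044 CPM at 48 h. Its hepatocyte-rich spots measured 203 to 216 CPM at 0 h and 172 to 359 CPM at 48 h, so 0 h and 48 h overlapped in hepatocyte-rich spots and not in hepatocyte-poor ones. The log2 difference between the classes was 0.13 ± 0.13 at 0 h and 2.90 ± 0.12 at 48 h, larger at 48 h by 2.77 ± 0.18 (SE, edgeR adjusted p = 9.53e-10).

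Csf1r, with no called change over whole sections, differed by place. In hepatocyte-poor spots it measured 81.8, 104 and 89.7 CPM at 0 h, 58.8 and 75.3 CPM at 24 h, 73.5 and 125 CPM at 36 h, and 121, 121, 198 and 202 CPM at 48 h. In hepatocyte-rich spots it measured 72.8 to 74.1 CPM at 0 h and 38.8 to 71.4 CPM at 48 h, with no overlap between those times in either class. The log2 difference between the classes went from 0.32 ± 0.10 at 0 h to 1.60 ± 0.08 at 48 h, a gain of 1.29 ± 0.13 (SE, edgeR adjusted p = 4.41e-10).

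Fcgr1, its companion on tissue macrophages, measured 11.1, 6.93 and 7.76 CPM in the hepatocyte-poor spots at 0 h and 37.9, 40.5, 53.0 and 55.8 CPM at 48 h, with a gain of 1.97 ± 0.24 (adjusted p = 6.34e-08). Ms4a6c gained 1.35 ± 0.25 (adjusted p = 5.42e-05), Plac8 0.81 ± 0.16 (adjusted p = 0.000143) and Ly6c2 1.05 ± 0.41 (adjusted p = 0.0496), a call that held without 0 h 4, 24 h A, 24 h B or 48 h C and was lost without any other section. The class difference was thus called larger than at 0 h for 6 of 10 members at 48 h, beside 16.4% of all genes called in that direction, 10 of 11 Kupffer cell genes and 7 of 10 lesion macrophage genes. At 36 h it was called for Lyz2, Ms4a6c, Fcgr1 and Csf1r, 4 of 10, beside 7.55%. At 24 h it was called for Lyz2 alone, 1 of 10, beside 6.29%, and for 2 without 0 h 4 and without 24 h A. The classes themselves were also farther apart after APAP. The 12 hepatocyte genes used for ranking differed between classes by a median log2 of -0.45 at 0 h. That median was -1.17 at 24 h, -1.14 at 36 h and -1.71 at 48 h. At 0 h 8 of 12 genes of central hepatocytes were higher in hepatocyte-poor spots, beside 7.6% of all genes. At 48 h 2 were higher, beside 36.3%, and 5 lower. The part of this in the gains was not tested.

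Ccr2, Chil3, F13a1 and Cx3cr1 had large class differences after injury that were not called to exceed those at 0 h. Ccr2 measured 0.464, 4.45 and 3.39 CPM in the hepatocyte-poor spots at 0 h, from 17 UMIs in all, and 26.2, 31.6, 36.4 and 40.9 CPM at 48 h, against 3.57 to 5.92 CPM in hepatocyte-rich spots at 48 h. The gain was 0.89 ± 0.49 (SE, edgeR adjusted p = 0.17). Chil3 had 1 UMI in all 0 h hepatocyte-poor spots, so no difference was detectable at this depth. The same spots of 0 h 2, 0 h 3 and 0 h 4 held 0, 0 and 1 UMIs of F13a1. They held 0, 2 and 1 UMIs of Cx3cr1, so the 0 h difference of both genes was poorly measured. At 48 h its hepatocyte-poor spots measured 274, 219, 278 and 73.7 CPM and its hepatocyte-rich spots 29.4, 20.8, 38.5 and 8.09 CPM, a log2 difference of 3.15 ± 0.11. Section 48 h D was lowest in both classes, and its ratio of 9.10 between them lay within the 7.23 to 10.6 of the other sections.

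From 24 h to 48 h the class difference grew for Lyz2 (by 1.17 ± 0.19, SE, edgeR adjusted p = 0.0003), Fcgr1 (1.15 ± 0.22, adjusted p = 0.000228), Csf1r (1.08 ± 0.14, adjusted p = 1.3e-06), Plac8 (0.75 ± 0.17, adjusted p = 0.0013) and Ms4a6c (0.72 ± 0.22, adjusted p = 0.0152), 5 of 10, beside 10.4% of all genes called in that direction, 11 of 11 Kupffer cell genes and 7 of 10 lesion macrophage genes. The part of either cell type, or of the wider gap between the classes, in these gains was not tested. The test was added after the values were seen, and without 24 h A only Lyz2 and Csf1r were called. The difference of Chil3 was 3.0 ± 0.21 at 24 h and 3.15 ± 0.11 at 48 h, and that of Ly6c2 was 2.77 ± 0.38 and 2.43 ± 0.18, and neither change was called.

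Portal and central spots were compared only in the uninjured sections, as the 20% of spots at either end of a zonation score, portal minus central genes. CPM of these spots were TMM-scaled in a fit of their own and cannot be set beside the section or class values. Csf1r measured 55.8, 63.7 and 63.1 CPM in portal spots and 44.1, 35.3 and 38.9 CPM in central spots, and was higher in the portal spots in all 3 sections (log2 difference 0.63 ± 0.09, edgeR adjusted p = 0.000383). Lyz2 (0.27 ± 0.04), Plac8 (0.27 ± 0.09) and Fcgr1 (0.45 ± 0.17) were also higher there, 4 of the 6 members tested, beside 13.2% of all genes, and Ly6c2 and Ms4a6c were not called. All 11 Kupffer cell genes were higher in the portal spots as well, with a median log2 difference of 0.43, and their part in the result was not tested. With total-count scaling, with thinning to 2000 UMIs and with narrower classes only Lyz2 and Csf1r were called. Ccr2, Chil3, F13a1 and Cx3cr1 were too low to test.

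Distance from the hepatocyte-poor spots was also measured. Spots were grouped by the number of steps on the hexagonal grid from the nearest hepatocyte-poor spot, and levels are CPM of the UMIs in the group, without TMM. Chil3 measured 384, 316, 406 and 102 CPM inside the hepatocyte-poor spots of the 48 h sections, 85.2, 68.2, 132 and 26.6 at 1 step, and 39.6, 25.6, 55.8 and 9.87 at 2 steps. Beyond 2 steps it measured 39.3, 41.0, 48.7 and 8.51, lower than at 2 steps in 3 sections and higher in 48 h B. Since the hepatocyte-poor spots were chosen in the same section, the level at 0 steps repeats the class comparison.

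**Figure D4:**
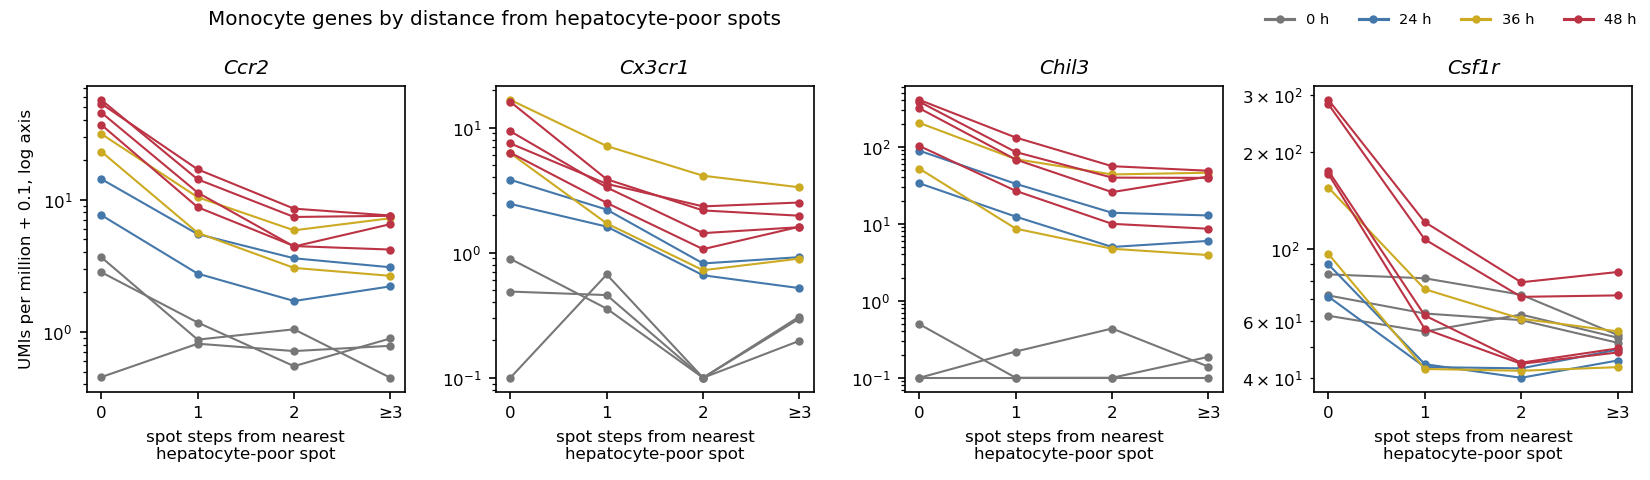
Level of Ccr2, Cx3cr1, Chil3 and Csf1r (CPM + 0.1 without TMM, log axis) by steps on the spot grid from the nearest hepatocyte-poor spot. Each line is a section, coloured by time after APAP. In every injured section the lines fall from 0 to 2 steps. Beyond 2 steps Ccr2, Cx3cr1 and Chil3 take no common direction, and Csf1r is lower than at 2 steps in only 1 of 8 injured sections. The 0 h lines lie near the floor for Cx3cr1 and Chil3, and Csf1r is lower at 1 step than at 0 in all 3 sections at 0 h.

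Most members were found in a minority of spots even at 48 h once depth was equal. To compare spots of unequal depth, each spot was thinned to 5000 UMIs, which left out 1 to 260 spots per section, the most in 0 h 4. Chil3 was found in 0 of 1930 spots in 0 h 2, which allows a share of up to 0.155% by a limit of 3 counts and 0.199% by the Wilson interval, in 1 of 2653 in 0 h 3, and in 0 of 2069 in 0 h 4. It was found in 4.37% and 11.4% of spots at 24 h, 4.43% and 24.9% at 36 h, and 26.6%, 21.7%, 32.8% and 9.70% at 48 h, with Wilson 95% intervals of 25.1% to 28.1% in 48 h A and 8.58% to 10.9% in 48 h D. Without thinning, Chil3 was found in 30.9% to 66.1% of spots at 48 h. Unthinned shares at 48 h were 45.3% to 72.9% for Plac8 and 54.0% to 80.0% for Csf1r, so these shares depend on depth.

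The other members ranged widely in this share. Ccr2 was in 0.21% to 0.63% of spots at 0 h and in 4.13% to 7.30% at 48 h, and Ly6c2 in 0.64% to 0.87% and 1.41% to 2.87%. Lyz2 was in 49.3% to 51.5% of spots at 0 h and in 67.5% to 87.4% at 48 h. Spots with UMIs of 3 or more members were 1.66% to 2.95% of spots at 0 h, 7.43% and 9.53% at 24 h, 7.03% and 21.8% at 36 h, and 19.7% to 35.9% at 48 h, when up to 8 of the 10 members were found in a single spot.

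**Figure D5:**
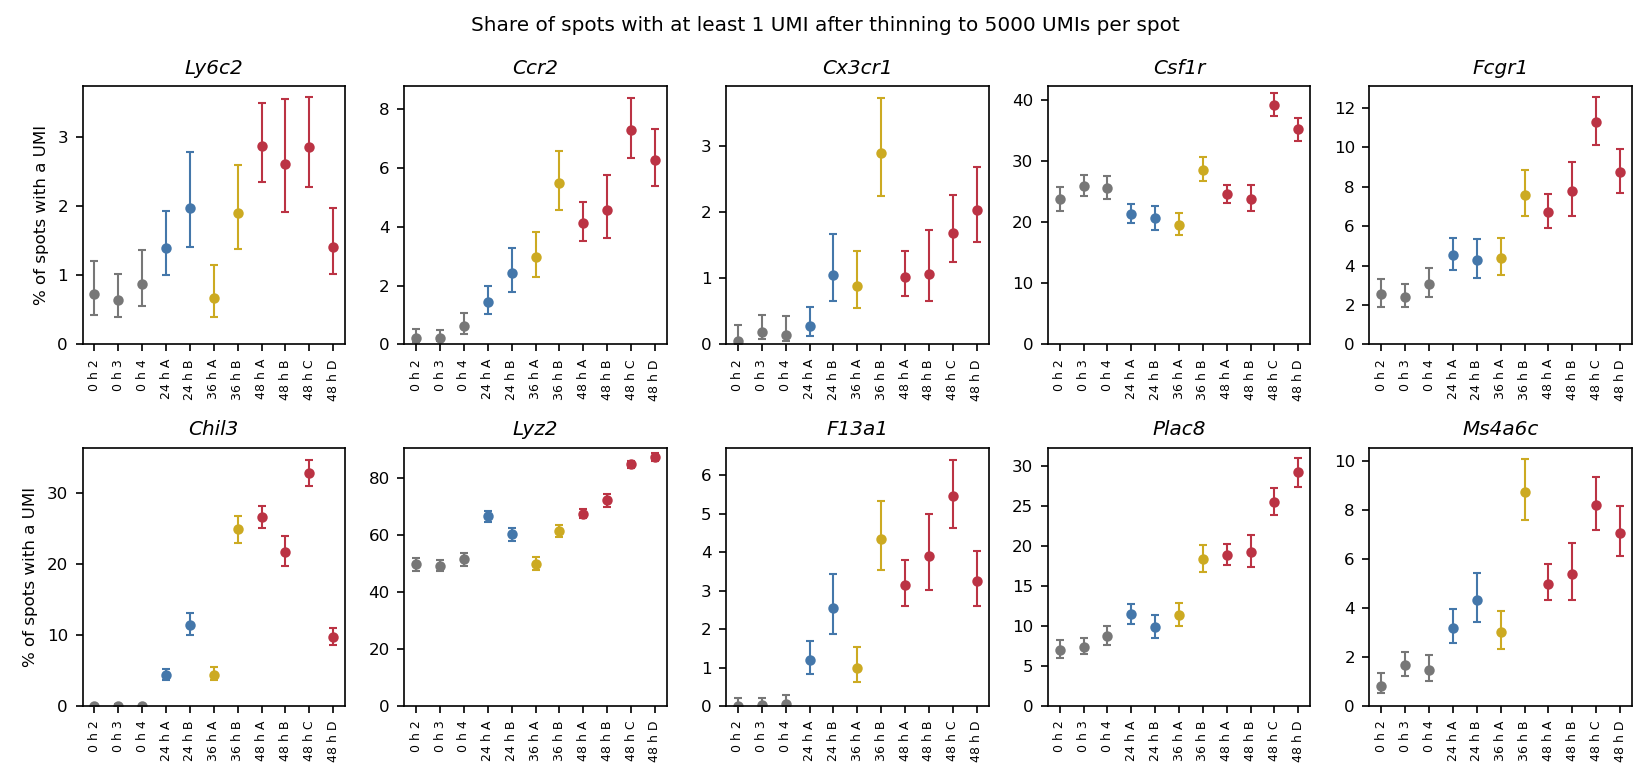
Percentage of spots with at least 1 UMI of each monocyte gene after thinning every spot to 5000 UMIs, by section. Bars are Wilson 95% intervals, which cover counting error only. Shares of Chil3, F13a1 and Cx3cr1 are at or near 0 at 0 h, and the share of Lyz2 is about the same at 0 h as in 36 h A.

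Chil3 was more frequent in spots with Ccr2 than in those without, and both genes were higher in the hepatocyte-poor spots. At 48 h Chil3 was present in 53.6%, 60.3%, 52.2% and 26.5% of the spots with a Ccr2 UMI and in 25.4%, 19.8%, 31.3% and 8.57% of those without, in sections A to D, so it was more frequent beside Ccr2 in all 4. Of the 90 ordered pairs of members, 80 were likewise more frequent together in every 48 h section, so this was not particular to Ccr2 and Chil3. Spots hold several cells, so a shared spot is not a shared cell.

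The genes whose course over the 11 sections was most like that of a member were ranked by the root mean square difference of centred log2(CPM + 0.5) over 12146 genes at a mean of 1 CPM or more. For Ccr2 the nearest was Fkbp10 (0.17), with mean levels of 1.28, 4.27, 8.92 and 13 CPM at 0, 24, 36 and 48 h, then Fbn1 (0.25) and Arhgap22 (0.26). For Cx3cr1 they were Cyp4f18 (0.19), Cd248 (0.24) and Rassf2 (0.28). For Ly6c2 they were Plscr1 (0.23), Itgav (0.23) and Anxa5 (0.25). The distances were larger for Chil3, with S100a6 (0.48), Ly6d (0.65) and S100a4 (0.98). Likeness over sections is a description of 11 values and says nothing of shared cells.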

How the data were processed

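Spot-level UMI counts of 11 sections were used as deposited. The authors made these raw counts per gene and spot with Space Ranger 1.0.0 on mm10 from the 10x Visium spatial 3′ assay, without normalization. Seurat 4.1.1 is also named in the submitters' processing notes. Spots lying under tissue entered if they held 800 genes or more and no more than 20% mitochondrial UMIs, 25136 in all, and UMIs were summed per section or per spot class. A spot is a small region that can hold several cells, so no doublet caller was run. Depth per section is given above and limits the sparse genes Ly6c2, Ccr2, Cx3cr1, Chil3 and F13a1 at 0 h. Groups came from the time point labels.

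Sums were tested with edgeR 4.0.16 (robust quasi-likelihood, TMM, filterByExpr), all 11 sections in one fit, with section as a block between spot classes. DESeq2 1.42.0 was an alternative, with total-count scaling, no low-count filter, all spots under tissue, only the time points compared, other thinning, narrower classes and leaving out each section. The scripts were tested on simulated data. Wilson 95% intervals were used for shares of spots. Spot classes used scores after thinning to 5000 UMIs. The members, lists and tests were chosen with earlier results of these data known. All members were named, and of other lists the 2 genes with the largest and the 2 with the smallest log2 fold change at 48 h could be named, and ligands in full. Clec4f and the near copies of members were named besides. Gene positions are from GENCODE M21 on GRCm38, and promoter windows from RefSeq. The list of transcription factors is not reported here.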

Additional observations from a re-analysis of the deposited data

Results flagged for a closer look

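In the 4 sections at 48 h, 4 of the 50 sets of values tested held an outlying section, judged by the gap to its nearest neighbour as a share of the whole range, a criterion that chance meets in about 1 of 20 sets. For Ly6c2 over the section that share was 0.884, with 48 h D low at 2.98 CPM. For the percentage of Ly6c2 UMIs found in the hepatocyte-poor spots it was 0.893, with 48 h C low at 26.4%. For F13a1 in hepatocyte-poor spots it was 0.928, with 48 h A low at 20.03 CPM, and in hepatocyte-rich spots 0.986, with 48 h C high at 3.77 CPM.

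The log2 difference between hepatocyte-poor and hepatocyte-rich spots was called different between times by edgeR for 6 members. For Lyz2 it was larger than at 0 h by 1.60 at 24 h, 2.11 at 36 h and 2.77 at 48 h, and larger at 48 h than at 24 h by 1.17. For Fcgr1 it was larger than at 0 h by 1.51 at 36 h and 1.97 at 48 h, and from 24 h to 48 h by 1.15. For Csf1r the values were 0.697, 1.29 and 1.08, and for Ms4a6c 1.13, 1.35 and 0.717. For Plac8 it was larger at 48 h by 0.81 than at 0 h and by 0.746 than at 24 h, and for Ly6c2 by 1.05 than at 0 h. What lies behind these differences was not tested.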

How the results depend on the processing

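Of 2175 log2 fold changes recomputed under other settings, 2012 kept their direction and side of the threshold, 80 lost the call, 49 gained it and 34 changed sign, none of these called in the reported fit. With only the compared time points fitted, 8 members were called at 24 h against 0 h, 7 at 48 h against 24 h and 0 at 48 h against 36 h. DESeq2 called 1 at 36 h against 24 h. With total-count scaling 5 class differences were called larger at 24 h than at 0 h, and 2 members portal against central, as with thinning to 2000 UMIs (2) and narrower classes (2), which left 3 between spot classes at 0 h. The shares of all genes given above belong to the reported fit and not to these settings. The cause was not tested.

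The labels do not say whether section letters pair the samples. Correlations of same-lettered sections ran from -0.23 to 0.27 and those of differently lettered sections from -0.45 to 0.45. With only 2 sections at 24 h and at 36 h, whose deviations mirror each other, these values cannot decide it. With the replicate letter as a block on the injured sections, 1 member was called at 48 h against 24 h, 0 at 48 h against 36 h and 0 at 36 h against 24 h, against 3, 0 and 0 on those sections without the block.

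Leaving out each section in turn gave 3 to 5 members called at 24 h, 4 to 8 at 36 h and 8 to 9 at 48 h against 0 h, 0 to 5 at 36 h against 24 h, 1 to 8 at 48 h against 24 h and 0 to 4 at 48 h against 36 h. Between spot classes it gave 1 to 5 at 0 h, 9 to 10 at 24 h and 10 at 36 h and 48 h, and for the class difference 1 to 2, 3 to 5 and 5 to 7 at 24, 36 and 48 h against 0 h, and 2 to 5 at 48 h against 24 h. Portal against central gave 3 to 4.

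Signs turned with other settings for Csf1r at 36 h against 0 h (0.11, total-count scaling), for F13a1 between classes at 0 h (-2.74 with thinning to 2000 UMIs, -3.14 with narrower classes) and for the class difference at 24 h against 0 h of Plac8 (-0.23 with that thinning, -0.091 with narrower classes), Cx3cr1 (-0.60, narrower) and Ccr2 (-0.23, narrower). Leaving out sections turned signs within these ranges of log2 values. At 48 h against 0 h Csf1r ran from -0.083 to 0.19, below 0 without 48 h C (-0.083) or 48 h D (-0.026). At 36 h against 24 h, with every lowest value without 36 h B, Fcgr1 ran from -0.27 to 0.98, Chil3 from -0.86 to 1.92, Plac8 from -0.024 to 0.84, F13a1 from -0.89 to 1.17 (-0.11 without 24 h A), Ly6c2 from -0.58 to 0.65, Csf1r from -0.086 to 0.55 and Ms4a6c from -0.26 to 1.4. At 48 h against 36 h, with the lowest value without 36 h A and the highest without 36 h B, Fcgr1 ran from -0.060 to 1.22, Chil3 from -0.015 to 2.72, F13a1 from -0.025 to 1.99, Cx3cr1 from -1.14 to 0.86 and Ms4a6c from -0.79 to 0.90. Between classes at 0 h Chil3 ran from -3.61 (without 0 h 3) to 2.25, and, lowest without 0 h 4, Lyz2 from -0.0012 to 0.29 and F13a1 from -3.79 to 2.28. For the class difference at 24 h against 0 h Plac8 ran from -0.096 to 0.28, below 0 without 24 h B (-0.096) or 0 h 2 (-0.079), Csf1r from -0.027 (without 24 h B) to 0.45, and, lowest without 0 h 2, Cx3cr1 from -0.056 to 1.45 and Ccr2 from -0.55 to 1.23. Ccr2 also ran from -0.15 to 1.62 at 36 h and from -0.0077 to 1.77 at 48 h, lowest without 0 h 2. At 48 h against 24 h F13a1 ran from -0.12 (without 24 h A) to 0.39 and Ly6c2 from -0.94 to 0.069 (without 24 h B).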
